A study of Rattus norvegicus with 6 samples.

Results

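The genes of the ovarian stroma and of smooth muscle were examined in newborn rat ovaries cultured with connective tissue growth factor (CTGF). The genes were Pdgfra, Pdgfrb, Dcn, Lum, Ogn, Postn, Acta2, Tagln, Des and Cnn1, chosen by symbol for their known place in these cells, and a probe set was used where the array annotation gave it exactly 1 of these symbols. Of the 10 genes, 9 had such a probe set, 1 each, among 27342 probe sets in all, and Acta2 was not analysed here. Ovaries came from female Sprague-Dawley pups of day P0, less than 8 hours old, and were cultured whole on floating filters for 24 hours. The 3 CTGF samples received 500 ng/ml of human CTGF, and the 3 control samples had no treatment. A sample pooled 2 to 3 ovaries, taken from different littermates and kept in 1 culture well. The CTGF pool and the control pool with the same replicate number were taken as 1 of 3 organ culture date batches, which the methods name.

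The stroma surrounds the nests of oocytes and later the follicles with fibroblast-like cells, a collagen matrix and blood vessels whose walls hold smooth muscle cells and pericytes. The PDGF receptors are tyrosine kinases of such mesenchymal cells. The small leucine-rich proteoglycans are secreted, bind collagen fibrils, and in the case of decorin bind TGFβ. Transgelin and calponin bind actin in contractile cells, and desmin forms their intermediate filaments. CTGF is a secreted matricellular protein, known as a target gene of TGFβ in fibroblasts.

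None of the 9 genes differed between CTGF and control ovaries beyond the spread of the 3 culture batches. The mean of each was lower with CTGF, by 0.01 (Pdgfrb) to 0.35 (Pdgfra) on the log2 scale (0.00 for Pdgfrb after centring the arrays on their medians), while 51.1% of all probe sets had a mean below control. For Cnn1, one of the 9, the signals lay below background, so its sign carries no direction. Of the 9 genes, 0 passed an adjusted p of 0.05 in limma, as did 0 of all 27342 probe sets (0%), the lowest adjusted p being 0.994. Before adjustment, 0 of the 9 and 3.35% of all probe sets had a limma p under 0.05, while the methods' 2-way test gave 0 of the 9 and 1147 of all probe sets. The study's own criteria for a changed gene were a ratio of un-logged means over 1.2 or under 0.83, a difference of these means over 10 and an unadjusted p under 0.05. They were met by 0 of the 9 and by 0.435% of all probe sets (119) with the p from limma. When the p came from the 2-way test instead, they were met by 0 of the 9 and 0.11% of all probe sets (30), and with limma and each batch left out by 185 to 273 probe sets. Differences within a culture batch reached -1.08 (Lum), and they are given for each gene with its values.

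The signals are un-logged array values, and log2 differences are CTGF minus control within 1 batch. For each probe set, paired CTGF and control arrays averaged to the same deposited log2 value in the 3 batches, apart from at most 0.005, so a signal shows the difference between the paired pools and not the level of its batch. For the same reason the SDs of both groups follow from the same 3 differences, and the p-values rest on 2 residual degrees of freedom. Background was judged from 40 probe sets of silent tissue genes (expressed in retina, lens, pancreas, pituitary, kidney, gut or lung), whose signals had a 95th percentile of 34.4. Of the 9 genes, 8 lay above it, as did 60.9% of all probe sets, and Cnn1 did not. In whole ovaries, fewer cells of a type and less RNA per cell cannot be told apart.

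**Figure D1:**
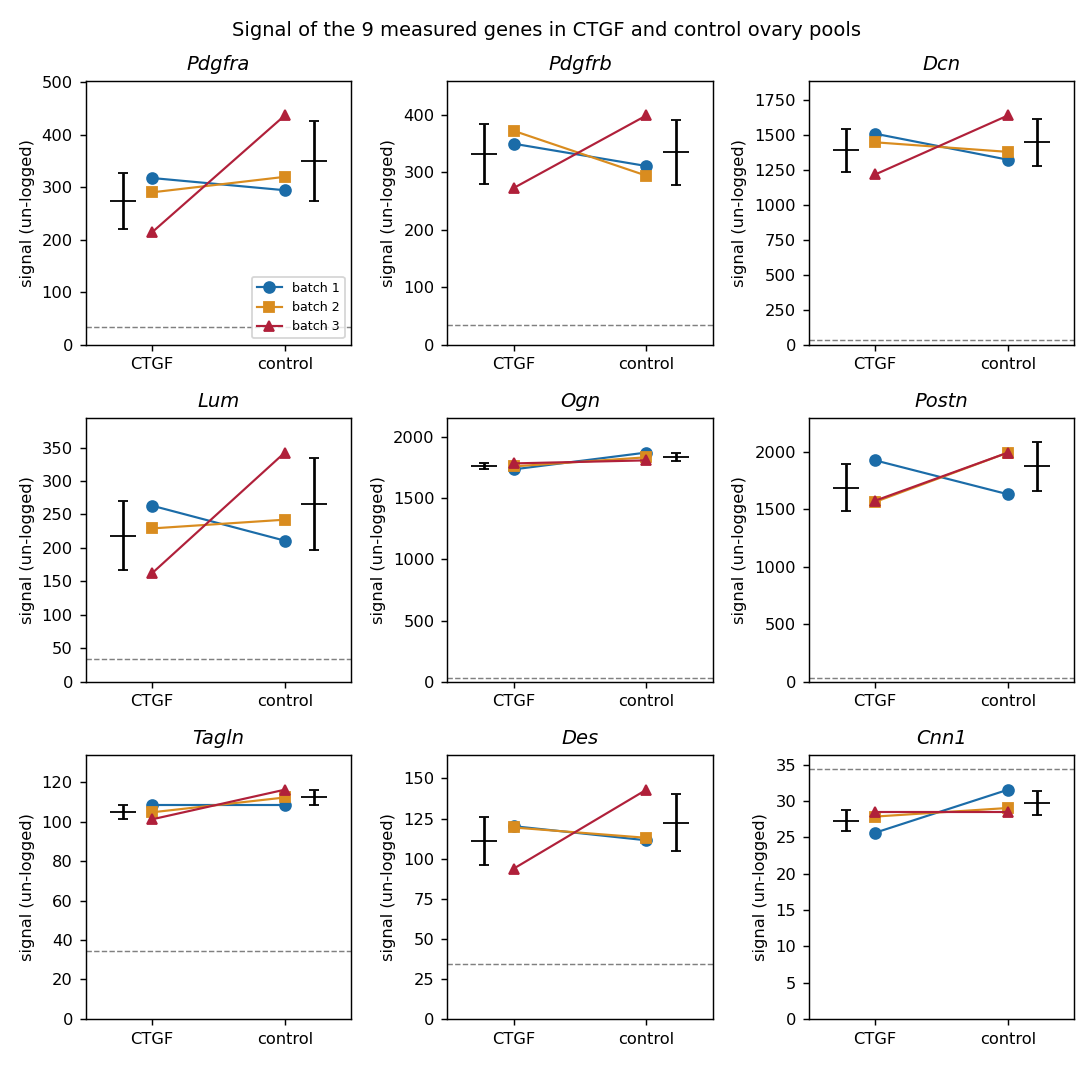
Un-logged signal (vertical axes, each from 0) of the 9 measured genes in CTGF and control ovary pools (horizontal axes). Points joined by a line are the paired pools of culture batch 1 (circles), 2 (squares) or 3 (triangles), black bars give the mean ± SD of 3 pools, and the dashed line is the background level of 34.4 from silent tissue genes. In Pdgfra, Pdgfrb, Dcn, Lum, Postn and Des the CTGF point is the lower one of its pair in batch 3 and the higher one in batch 1, and only the Cnn1 points lie below the dashed line.

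Pdgfra, the receptor for PDGF-A that marks stromal fibroblasts, had signals of 317, 290.0 and 214 in the CTGF pools of batches 1, 2 and 3, against 294, 319.6 and 437 in the control pools of the same batches. The CTGF and control values overlapped, and the lowest and the highest of all 6 were the paired pools of batch 3. The means were 274 ± 53.7 with CTGF and 350.1 ± 76.0 in controls (SD, n = 3 each), and the log2 fold change was -0.35 (standard error 0.21, 95% interval -0.85 to 0.15, adjusted p = 0.994 in limma). The 3 log2 differences were 0.11, -0.14 and -1.03, and without batch 3 the log2 fold change was -0.02.

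Pdgfrb, the receptor for PDGF-B found on pericytes and other mesenchymal cells, had signals of 349.7, 372 and 272 in the CTGF pools, against 311, 294 and 399 in the control pools. It was higher with CTGF in batches 1 and 2, by 0.17 and 0.34 on the log2 scale, and lower in batch 3, with a difference of -0.55. The log2 fold change was therefore near 0, at -0.01 (standard error 0.17, 95% interval -0.42 to 0.39, adjusted p = 0.994 in limma). Without batch 3 it was 0.255, with an unadjusted p of 0.049 in limma over the 2 remaining pairs. In that fit 1244 of all probe sets had an unadjusted p under 0.05. Thus the direction of Pdgfrb was set by 1 pair of pools.

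The ligands of these receptors were measured with 4 probe sets, and 0 of the 4 passed an unadjusted p of 0.05. Pdgfb, the ligand that endothelial cells give to pericytes, had log2 differences of 0.17, 0.48 and 0.00 in the 3 batches and means of 44.9 ± 3.85 with CTGF and 38.7 ± 3.21 in controls (SD, n = 3 each). Pdgfc, a ligand of Pdgfra, had 0.14, -0.04 and -0.42. Pdgfa and Pdgfd had log2 fold changes of 0.04 and -0.09. None of the 4 was higher with CTGF in batch 3.

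Dcn, which encodes decorin, had signals of 1509.7, 1448 and 1218 in the CTGF pools, against 1323, 1379.6 and 1641 in the control pools. CTGF was the higher pool in batches 1 and 2 and the lower one in batch 3, with log2 differences of 0.19, 0.07 and -0.43. The log2 fold change was -0.06 (standard error 0.12, 95% interval -0.36 to 0.25), and 0.13 without batch 3.

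Lum, which encodes lumican, had signals of 263, 229 and 162 in the CTGF pools, against 211, 242 and 343 in the control pools. The values of the groups overlapped, and as in Pdgfra the extremes were the paired pools of batch 3. Means were 218 ± 51.5 with CTGF and 265 ± 68.8 in controls (SD, n = 3 each), and the log2 fold change was -0.28 (standard error 0.24, 95% interval -0.87 to 0.31). The log2 differences were 0.32, -0.08 and -1.08, the SD of which, 0.72, was the largest among the 9 genes. Without batch 3 the log2 fold change of Lum was 0.12.

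Ogn, which encodes osteoglycin, had signals of 1734, 1758 and 1783 in the CTGF pools, against 1872, 1833 and 1808 in the control pools. It was the 1 gene of the 9 in which the groups did not overlap, each CTGF value being lower, where 10.9% of all probe sets had this pattern. The differences were small, at -0.11, -0.06 and -0.02 on the log2 scale, and the log2 fold change was -0.06 (standard error 0.06, 95% interval -0.22 to 0.09, adjusted p = 0.994 in limma). In batch 3, where Lum and Dcn had their largest differences, Ogn had its smallest.

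Of 14 other genes of small leucine-rich proteoglycans listed, 11 were measured. Among these, 6 had a mean above control and 5 below, with a median log2 fold change of 0.01, and 0 passed an unadjusted p of 0.05. Their medians were -0.13, 0.17 and 0.02 in batches 1, 2 and 3. In batch 3, 7 of the 11 were above control and 3 below. Of the 8 that lay above the silent tissue percentile, 4 were above control and 3 below, with a median of 0.005. The osteomodulin gene Omd had a log2 difference of 0.60 there, and -0.13 and -0.02 in batches 1 and 2. Fmod, the gene of the collagen-binding fibromodulin, had -0.23, -0.01 and 0.01, and Epyc had a log2 fold change of -0.06 at signals below those of the silent tissue percentile.

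Postn encodes periostin, a matricellular protein of connective tissue fibroblasts. Its signals were 1924, 1563 and 1574 in the CTGF pools, against 1629, 1992 and 1992 in the control pools. Here batches 2 and 3 gave nearly the same difference, -0.35 and -0.34 on the log2 scale, and batch 1 was opposite, at 0.24. The log2 fold change was -0.15 (standard error 0.13, 95% interval -0.46 to 0.16, adjusted p = 0.994 in limma). Without batch 1, the pair of opposite sign, it was -0.345, with an unadjusted p of 0.013 in limma over batches 2 and 3. In that fit 645 of all probe sets had an unadjusted p under 0.05. Postn then met the study's criteria, as did 185 of all probe sets. It was the only one of the 9 genes to meet them with any batch left out.

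Tagln, the gene of the smooth muscle protein transgelin, had signals of 108, 105 and 101 in the CTGF pools, against 108, 112 and 116 in the control pools. The groups met at the value of batch 1 and were otherwise apart. The log2 fold change was -0.10 (standard error 0.07, 95% interval -0.27 to 0.07, unadjusted p = 0.20 in limma). In a fit with no batch term the unadjusted p was 0.048, a fit that takes 4 residual degrees of freedom from values with 2.

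Des, the gene of desmin, had signals of 120.3, 119 and 93.7 in the CTGF pools, against 111, 113 and 143 in the control pools. The pattern was that of Pdgfrb and Dcn, with CTGF above control in batches 1 and 2 and below it in batch 3. The log2 differences were 0.11, 0.08 and -0.61, and the log2 fold change was -0.14 (standard error 0.15, 95% interval -0.50 to 0.22), or 0.095 without batch 3.

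Cnn1, the gene of calponin and a marker of mature smooth muscle, had signals of 25.6, 27.9 and 28.4 in the CTGF pools, against 31.6, 29.0 and 28.4 in the control pools. All 6 values lay under the level set by silent tissue genes, so no direction can be read for it, although its sign is counted with those of the other genes.

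Of 26 other smooth muscle genes listed, 19 were measured, 14 of them above that percentile. Means were above control in 11 and below in 8, with a median log2 fold change of 0.01 and batch medians of 0.02, 0.07 and -0.08. Hspb6, a small heat shock protein of smooth muscle, was the 1 gene of the 19 with an unadjusted p under 0.05 (3.35% of all probe sets). Its means were 129 ± 5.23 with CTGF and 147 ± 5.57 in controls (SD, n = 3 each), and its log2 differences were -0.26, -0.25 and -0.06 (unadjusted p = 0.038, adjusted p = 0.994 in limma). For Ppp1r14a, an inhibitor of myosin phosphatase, the log2 fold change was -0.20 ± 0.09 (standard error), and for Myh11, the smooth muscle myosin heavy chain, it was 0.15 ± 0.09 (standard error).

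Srf, the transcription factor that drives contractile genes such as Tagln and Cnn1, had means of 97.5 ± 2.58 with CTGF and 109.9 ± 3.29 in controls (SD, n = 3 each). It was lower in each batch, by log2 differences of -0.23, -0.08 and -0.21 (unadjusted p = 0.041, adjusted p = 0.994 in limma). For its cofactor gene Myocd it was 0.08 ± 0.07 (log2 fold change and standard error), with signals just below the silent tissue percentile.

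**Figure D2:**
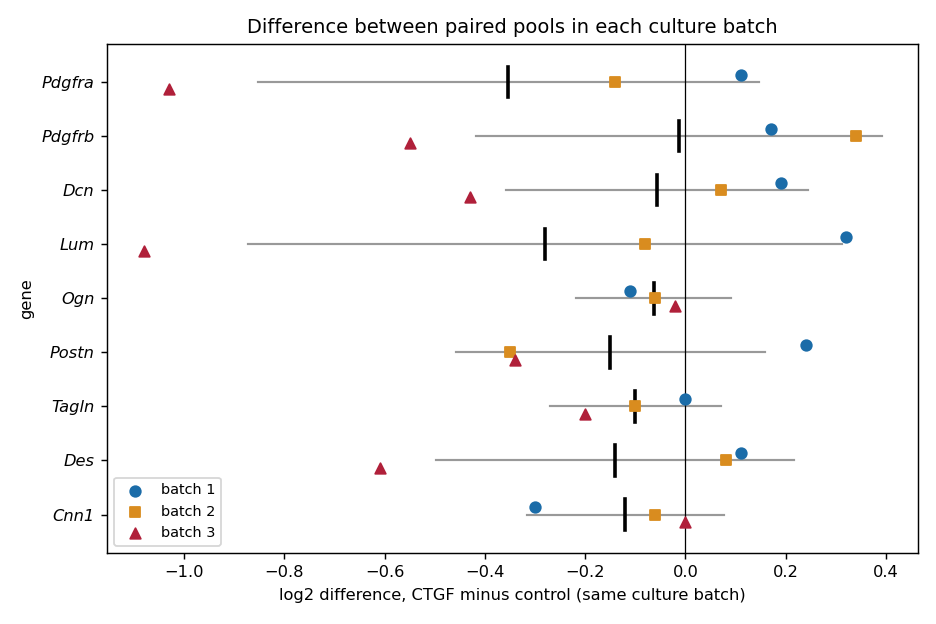
Log2 difference between the CTGF and the control pool of the same culture batch (horizontal axis) for the 9 genes (vertical axis) in batch 1 (circles), 2 (squares) and 3 (triangles). Black marks are the mean of 3 batches and grey lines its 95% interval from limma, and each interval includes 0. Pdgfra and Lum reach -1.03 and -1.08 in batch 3, while the points of Ogn lie between -0.11 and -0.02.

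The differences of these genes varied with culture batch. In batch 3, 6 of the 9 genes (Pdgfra, Pdgfrb, Dcn, Lum, Postn and Des) had a ratio of CTGF over control under 0.83 and 0 had one over 1.2, where the shares of all probe sets were 6.04% and 5.49%. Among probe sets above the silent tissue percentile, 7.77% were under 0.83. Pdgfra, Lum and Des were under 0.67, where 0.724% of all probe sets and 1.03% of those above the silent tissue percentile were. In batch 1 the same 6 genes were all above control, a combination found in 3.85% of all probe sets. It was common among probe sets this low in batch 3: of the 1651 under 0.83 there, 1053 were above control in batch 1. Only Lum had a ratio over 1.2 in that batch (4.32% of all probe sets), and only Cnn1, at signals below background, was under 0.83 (4.89%). In batch 2, Pdgfrb was over 1.2 (3.55%) and Postn under 0.83 (5.11%). The medians of the 9 genes were 0.11, -0.06 and -0.43 in the 3 batches, beside 0.00, -0.01 and 0.00 over all probe sets. These thresholds were applied to single pairs of pools, with no replicate in a batch, and chosen after the values were seen.

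**Figure D3:**
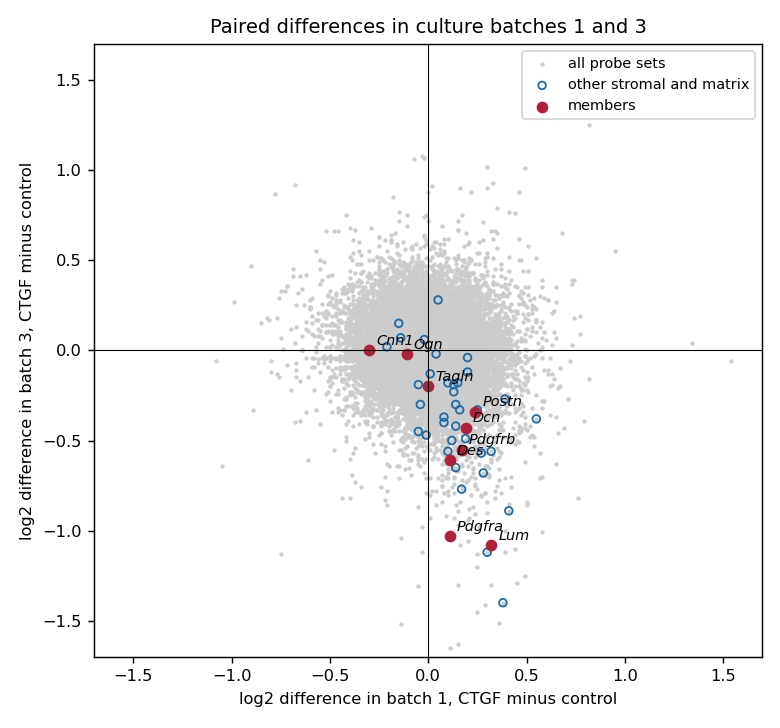
Log2 difference in culture batch 1 (horizontal axis) against that in batch 3 (vertical axis), each from its own CTGF and control pool, for all probe sets (grey, 3 outside the axes), the other stromal and matrix genes (open circles) and the 9 genes (filled circles with names). Pdgfra, Pdgfrb, Dcn, Lum, Postn and Des lie at the lower right, above control in batch 1 and below it in batch 3.

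The other stromal genes were also mostly above control in batch 1 and below it in batch 3. Of 43 listed genes of collagens, elastic fibres, fibroblast markers and stromal transcription factors, 36 were measured, 34 of them above the silent tissue percentile. In batch 3, 22 of the 36 had a ratio under 0.83 (6.04% of all probe sets) and 1 had one over 1.2 (5.49%). In batch 1, 28 of the 36 were above control, 8 of them with a ratio over 1.2 (4.32% of all probe sets). The share of all probe sets above control in a single batch was not counted. The medians of the 36 were 0.14, 0.05 and -0.33 on the log2 scale, beside 0.00, -0.01 and 0.00 over all probe sets. Over the 3 batches the median of the list was -0.03. Without batch 3 that median was 0.088. No gene of the list passed an unadjusted p of 0.05 in limma.

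Of these 36 genes, 6 had a ratio under 0.67 in batch 3, a ratio found in 0.724% of all probe sets. Dpt, which encodes the matrix protein dermatopontin, had log2 differences of 0.38, 0.26 and -1.40. Vcan, a large proteoglycan of loose matrix, had 0.30, 0.04 and -1.12, and Thy1, a surface marker of fibroblasts, 0.41, -0.03 and -0.89. Fap, a protease of activated fibroblasts, had 0.17, -0.05 and -0.77, and Cd34 and S100a4 had -0.68 and -0.65 in batch 3. Of the 6, Fap was named by the rule for named genes and the others after their values were seen. The other genes named by that rule, Fbn1 (fibrillin) and Tcf4, had log2 fold changes of -0.09 and -0.14.

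Pericyte genes were measured with 13 probe sets of 12 genes, 9 of them above the silent tissue percentile. The median of the 13 was -0.01, 0.06 and -0.08 in the 3 batches. In batch 3, 10 were below control and 4 had a ratio under 0.83, as did 6.04% of all probe sets. Of the 9 above the percentile, 8 were below control in batch 3, with a median of -0.22, beside 0.00 over all probe sets. The share of all probe sets below control in a single batch was not counted. Mcam, an adhesion molecule of pericytes and endothelium, had log2 differences of 0.09, 0.01 and -0.92. Anpep had a log2 fold change of -0.06, and Higd1b had signals below the silent tissue percentile.

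**Figure D4:**
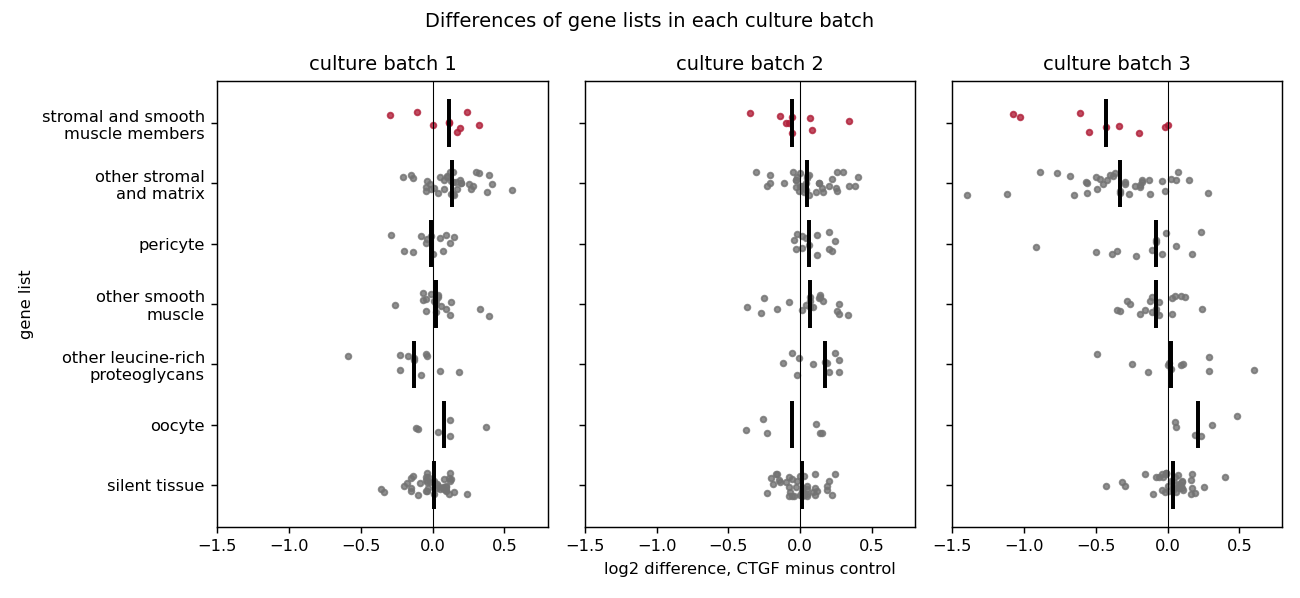
Log2 difference between CTGF and control pools (horizontal axes) of the probe sets of 7 gene lists (vertical axis) in culture batches 1, 2 and 3, with the median of each list as a black line. The medians of the 9 genes are 0.11, -0.06 and -0.43 and those of the other stromal and matrix genes 0.14, 0.05 and -0.33, and the oocyte markers have a median of 0.21 in batch 3.

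Markers of other ovarian cells were measured beside these genes. All 6 oocyte markers (Ddx4, Dazl, Sycp3, Gdf9, Zp3 and Kit) lay above the silent tissue percentile, and their median log2 differences were 0.08, -0.06 and 0.21 in batches 1, 2 and 3. Of the 6, 3 were below control in batch 2 and 0 in batch 3. Kit, the receptor for Kit ligand, was the 1 with an unadjusted p under 0.05 (3.35% of all probe sets), with a log2 fold change of 0.19 (unadjusted p = 0.033, adjusted p = 0.994 in limma). Their summed signal was 4563 to 5039.6 in CTGF pools and 4337 to 4808 in control pools, with 4563 with CTGF against 4808 in the control in batch 2, and 5039.6 with CTGF against 4337 in the control in batch 3. The summed signal of the 9 stromal and smooth muscle genes was higher with CTGF in batch 1, at 6352 against 5891 in the control. It was lower with CTGF in batch 2 (5913 against 6315) and in batch 3 (5446 against 6906). Dcn, Ogn and Postn, the genes of the 9 with the largest signals, weigh most in this sum. Leukocyte markers (5 of 6 above the percentile, Cd3e below it) summed to 456 to 563.3 in CTGF pools and 562.9 to 740.2 in control pools. In batch 1 the paired sums were about equal, at 563.3 with CTGF against 562.9 in the control. The lower sums with CTGF in batches 2 and 3 came mostly from Cpa3, a protease of mast cells. It had log2 differences of -0.14, -0.80 and -1.52 (unadjusted p = 0.012, adjusted p = 0.994 in limma), where 3.35% of all probe sets had an unadjusted p under 0.05. Without Cpa3 the sums by batch were 323 with CTGF against 298 in the control, 306 against 314 and 307 against 313. Endothelial markers (4 measured of 6 listed, all above the percentile) summed to 289 to 293 in CTGF pools and 309 to 316 in control pools. Tek had the largest signals of the 4 and weighs most in these sums. None of the 4 was itself lower with CTGF in all 3 batches, a pattern found in 10.9% of all probe sets. Of the 4, 0 had an unadjusted p under 0.05 in limma, and means were below control in 3 and above in 1. The latter was Tie1, with log2 differences of 0.05, 0.17 and 0.03. In batch 3 Esam and Cdh5 were below control (-0.61 and -0.36) and Tie1 and Tek above it (0.03 and 0.08).

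The pregranulosa markers (4 measured of 6 listed, all above the percentile) summed to 2983 to 3293 in CTGF pools and 2929 to 3239 in control pools. These sums also varied with batch, at 2983 with CTGF against 3239 in the control in batch 1, 3293 against 2929 in batch 2 and 3194 against 3025 in batch 3. The median log2 differences of the 4 were -0.265, 0.16 and 0.045. Surface epithelium markers (6 of 7 probe sets above the percentile, 1 of Krt18 below it) summed to 3727 to 3899 in CTGF pools and 3743 to 3924 in control pools. By batch these were 3727 with CTGF against 3924 in the control, 3899 against 3743 and 3840 against 3804. For skeletal muscle, a tissue that also makes desmin, 1 of 5 markers lay above the percentile, and Myog, Myh3, Actn2 and Ttn were below it. Their sums were 126 to 132 in CTGF pools and 124 to 129 in control pools. The part of the other cell types in the differences of the stromal genes was not tested.

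The promoters of 7 of the 10 genes were in the RefSeq table used (GRCr8), and Dcn, Pdgfrb and Tagln were not among them. Those of Pdgfra and Lum are shown because these genes had the largest differences in batch 3, and that of Postn for its different pattern by batch. Each is given 5′ to 3′ from 100 bases before to 20 bases after the start of the gene, with a TATAAA match in capitals. The Pdgfra window lies at chr14:33408497-33408616 (minus strand), Lum at chr7:34245606-34245725 (plus strand) and Postn at chr2:140677961-140678080 (plus strand).
Pdgfra: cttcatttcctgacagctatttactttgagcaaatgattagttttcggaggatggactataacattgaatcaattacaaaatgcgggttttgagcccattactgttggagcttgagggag
Lum: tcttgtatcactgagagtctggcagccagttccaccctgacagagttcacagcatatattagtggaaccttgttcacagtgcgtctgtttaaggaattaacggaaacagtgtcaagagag
Postn: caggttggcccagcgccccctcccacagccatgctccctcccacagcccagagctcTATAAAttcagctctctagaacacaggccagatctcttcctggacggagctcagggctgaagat

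These letters were searched on both strands over windows of 300 bases, from 250 before to 50 after the start. TATAAA was found in the promoters of Ogn and Postn, in that of Postn at 44 bases before the start, and in 14.2% of all 33469 promoters of the table. CATTCC, the MCAT element that TEAD factors bind, was found in those of Acta2 and Ogn and also in 14.2% of all promoters. The CArG box, the element that Srf binds, was searched only in its strict form, with nothing but A and T in its centre, and this form was found in 0 of the 7 and in 1.64% of all promoters. Functional CArG elements with a G or C in the centre are known, the Acta2 promoter among them, and were not searched. The matches describe the sequence only. None of the 3 motifs was found in the windows of Pdgfra, Lum, Cnn1 and Des.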

How the data were processed

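Total RNA of 6 pools of cultured ovaries was hybridised to Rat Gene 1.0 ST arrays. The authors summarized each of 27342 probe sets to a log2 signal with RMA in Partek, with a GC-content adjustment per the methods, and the deposited log2 values have 2 decimals. Array medians lay between 5.82 and 5.84. The number of arrays limits the precision. In the deposited values batch means are equal to within 0.005, a step the sources used here do not describe.

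Fold changes and tests were computed with lmFit and eBayes of limma 3.58.1 (R 4.3.3, 4.22 prior degrees of freedom) on all probe sets without a filter, with Benjamini-Hochberg adjustment. The culture batch was a block, as in the methods. The pairing is by the replicate number of the samples, taken as the culture batch. The correlations of paired deviations, -0.9988 to -0.9991, follow from the equal batch means. The procedure was tested on simulated data. Each sample was a separate pool, so p-values measure the spread between 3 paired pools.

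Symbols came from the platform annotation (1 symbol for 15097 probe sets, several for 323, none for 11922) and current ones from RefSeq (15067 matched). The genes, lists and tests were chosen with earlier results of these data known. Named were each of the 10 genes, up to 3 genes with the smallest p from each other list, and markers where they touched a result. Each batch was left out in turn. Other alternatives tried were no replicate block, median centring, quantile normalization, only probe sets above the silent tissue percentile, eBayes with a trend, robust eBayes, the unmoderated 2-way test of the methods, no minimum difference and 1 probe set a gene. All measured genes had 1 probe set, so that choice changed nothing.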

Additional observations from a re-analysis of the deposited data

How the results depend on the processing

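Each of the 9 genes had a mean below control under quantile normalization, eBayes with a trend, robust eBayes, the 2-way test of the methods and no replicate block. Under median centring 8 did, and Pdgfrb had none of either sign (0.00). The filter on low signal left 8 genes, each below control. With no replicate block, 1 gene (Tagln) had an unadjusted p under 0.05, against 0 with the block, and 0 of the 9 passed after adjustment in any of these fits. Over all probe sets 4415 had an unadjusted p under 0.05 with no replicate block and 496 with the filter, which tests fewer, against 915. All probe sets at the study's criteria numbered 119, and 30 with the 2-way test or 217 with no minimum difference. With each replicate left out in turn they numbered 185 to 273, and 0 to 1 of the 9 genes met the criteria (Postn, without replicate 1). An unadjusted p under 0.05 in limma was then found for Postn without replicate 1 and Pdgfrb without replicate 3. Over all probe sets it was found for 645 to 1244. Without replicate 3, 4 genes turned direction. Over the replicates left out the log2 fold change was -0.19 to 0.255 for Pdgfrb, -0.18 to 0.13 for Dcn, -0.58 to 0.12 for Lum, -0.265 to 0.095 for Des, and the median of the other stromal genes -0.11 to 0.088. At a ratio under 0.67 in place of 0.83, an alternative chosen after seeing the data, 3 genes (0.724% of all probe sets) in place of 6 (6.04%) were lower in batch 3, and median centring or quantile normalization left 6. The cause was not tested.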
